A study of Mus musculus with 16 samples.

Results

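Chemokines are small secreted proteins that draw leukocytes along a concentration gradient through G-protein-coupled receptors. The 8 genes described here are 7 CC chemokine ligands (*Ccl2*, *Ccl5*, *Ccl7*, *Ccl8*, *Ccl12*, *Ccl20* and *Ccl25*) and *Cx3cl1*, which encodes fractalkine, and they were chosen by symbol, as the genes of these names in the per-gene table of log2 CPM, which is read counts scaled to library size. Of the 8 symbols, 6 are among the 16707 genes of that table, while *Ccl12* and *Ccl20* are not, and these are described from their transcript reads alone. In the central nervous system, CCL2, CCL7 and CCL12 draw monocytes through CCR2 and related receptors, and CCL5 draws T cells and macrophages. CCL20 acts on CCR6, which Th17 cells carry, and CCL25 acts on CCR9. Fractalkine differs from the others in that it is made as a transmembrane protein, which ADAM10 and ADAM17 can shed, and its receptor CX3CR1 is carried by microglia. Inflammatory transcription of several of these genes is known to run through NF-κB downstream of Toll-like receptors and through signalling from the interferon-γ receptor.

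RNA was measured by poly-A, non-stranded, paired-end sequencing in primary astrocyte cultures from WT (C57BL/6J) and *Nlrx1*-/- mouse pups of postnatal day 6, enriched with beads against the astrocyte antigen ACSA-2. NLRX1 is a mitochondrial NOD-like receptor, and the question behind the series is whether it regulates inflammatory activation of astrocytes. Each of 4 litters per genotype gave a well treated with vehicle (water) and a well treated with 500 ng/mL lipopolysaccharide (LPS) and 10 ng/mL IFNγ, both for 24 h, so that there are 16 libraries in 4 conditions with n = 4 litters each. All cultures grew in serum-free medium with HB-EGF before treatment. Both wells of a litter come from the same set of mice, each litter has 1 genotype, and the WT pups are thus not littermates of the *Nlrx1*-/- pups. The labels and the study's methods give day 6, while its results text gives a younger age for the cultures. That text also has WT and *Nlrx1*-/- pups share a day of birth, but no label ties a WT litter to an *Nlrx1*-/- litter by its number, and a part of shared days in the values was not tested.

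Salmon assigned 27259420 to 43752903 read pairs per library to transcripts. *Nlrx1* ran at 16.8 to 21.7 CPM in the WT libraries and at 2.07 to 7.75 CPM in the *Nlrx1*-/- libraries, with no overlap but with reads in each of the latter. All 10 astrocyte markers examined passed the minimum count. Of 16 microglial and macrophage markers, *Cx3cr1*, *Fcrls*, *Trem2*, *Tmem119* and *Aif1* were each at a mean of at most 0.16 TPM (the length-corrected transcript level) in every condition. The astrocyte list summed to 4227 to 6867 TPM in WT vehicle, 3428 to 5044 TPM in WT LPS + IFNγ, 2980 to 4999 TPM in *Nlrx1*-/- vehicle and 2692 to 3874 TPM in *Nlrx1*-/- LPS + IFNγ. In bulk RNA, fewer cells of a type and less RNA per cell cannot be told apart.

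In the genome (GRCm39, GENCODE M39), *Ccl2*, *Ccl7*, *Ccl12* and *Ccl8* lie on the plus strand of chromosome 11 within 81.2 kb, with *Ccl11* between *Ccl7* and *Ccl12*. *Ccl2* is at chr11:81926397-81928279, *Ccl7* at chr11:81936532-81938351, *Ccl12* at chr11:81992645-81994466 and *Ccl8* at chr11:82006007-82007625. *Ccl5* lies 1.41 Mb further along at chr11:83416602-83425942 on the minus strand. *Ccl20* is at chr1:83094487-83096888, *Cx3cl1* at chr8:95498637-95509055 and *Ccl25* at chr8:4374661-4540760, all on the plus strand. The annotated span of *Ccl25* overlaps the protein-coding *Elavl1* on the opposite strand at chr8:4332576-4375489, together with 5 other annotated models, and because the libraries carry no strand, reads from the stretch shared with *Elavl1* cannot be told apart between the genes. No protein-coding gene overlaps the other 7 members. Reads were summed over the whole transcript, so each value covers all exons of a gene, its untranslated regions included.

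Promoter sequence from the RefSeq table (build GRCm38.p6) was held for 5 of the 8 members, *Ccl8*, *Ccl12*, *Ccl20*, *Ccl25* (with 2 start sites) and *Cx3cl1*, while *Ccl2*, *Ccl5* and *Ccl7* were not analysed here for promoter sequence. The windows, from 250 bases before to 50 bases after a start, were searched on both strands for the NF-κB consensus, for the interferon-γ activated site TTCNNNGAA and for the interferon response element letters GAAANNGAA. The NF-κB consensus matched once, on the minus strand of the *Ccl20* window with its first base 80 bases before the start, and the consensus is found in 8.5% of 32851 promoter windows of the same length. Neither TTCNNNGAA, found in 8.3% of windows, nor GAAANNGAA, found in 8.6%, matched in the windows of these 5 genes. The 250 bases before the start are given below for *Ccl20*, as the window with the match, for *Ccl12* and *Ccl8*, which had reads in stimulated wells and none in vehicle wells, and for *Cx3cl1*, the member with the most reads. In GRCm38.p6, and all on the plus strand, these stretches are chr1:83116516-83116765 for *Ccl20*, chr11:82101595-82101844 for *Ccl12*, chr11:82114935-82115184 for *Ccl8* and chr8:94771930-94772179 for *Cx3cl1*. Capitals mark the NF-κB match, and all sequences run 5′ to 3′.
Ccl20: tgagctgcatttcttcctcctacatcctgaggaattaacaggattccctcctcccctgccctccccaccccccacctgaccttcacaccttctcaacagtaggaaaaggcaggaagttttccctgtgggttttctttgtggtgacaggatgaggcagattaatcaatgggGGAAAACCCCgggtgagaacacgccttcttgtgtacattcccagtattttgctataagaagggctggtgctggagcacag
Ccl12: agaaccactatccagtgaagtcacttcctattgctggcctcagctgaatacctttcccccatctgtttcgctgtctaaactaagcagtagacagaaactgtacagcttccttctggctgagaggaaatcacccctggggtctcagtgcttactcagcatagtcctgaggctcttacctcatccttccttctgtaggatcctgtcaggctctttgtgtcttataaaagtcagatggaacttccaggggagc
Ccl8: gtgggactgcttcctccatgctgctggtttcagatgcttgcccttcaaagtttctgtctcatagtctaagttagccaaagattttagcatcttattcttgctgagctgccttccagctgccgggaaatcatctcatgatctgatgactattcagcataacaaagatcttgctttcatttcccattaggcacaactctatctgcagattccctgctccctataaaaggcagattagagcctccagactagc
Cx3cl1: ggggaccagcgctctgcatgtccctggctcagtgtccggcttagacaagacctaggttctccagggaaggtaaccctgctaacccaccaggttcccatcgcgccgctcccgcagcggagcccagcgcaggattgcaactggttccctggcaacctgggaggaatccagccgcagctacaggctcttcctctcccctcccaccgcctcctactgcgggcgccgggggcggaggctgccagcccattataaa
In pairwise global alignment, the upstream stretches of *Ccl12* and *Ccl8* were 54.5% identical, and the other 14 pairs among the 6 windows were 38.8% to 49.1% identical. A match is a description of the letters alone, and binding was not measured in these libraries.

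The first comparison asks which of the chemokines astrocytes express at rest and which after stimulation, and how their RNA levels rank. At rest *Cx3cl1* made up nearly all of the summed level. In WT vehicle wells *Cx3cl1* had a mean of 75.3 TPM ± 15.5 (SD, n = 4), *Ccl25* of 4.58 TPM ± 1.48 and *Ccl2* of 0.599 TPM ± 0.412, while *Ccl5*, *Ccl7*, *Ccl8*, *Ccl12* and *Ccl20* had no read in any WT vehicle library. A count of 0 allows 3 reads per library, which is 0.0661 to 0.108 CPM in these 4 libraries. *Cx3cl1* made up 93.5% ± 1.43 (SD, n = 4) of the summed TPM of the 8 genes in WT vehicle wells and 93.8% ± 1.77 in *Nlrx1*-/- vehicle wells.

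After LPS + IFNγ the *Cx3cl1* share was 28.2% ± 5.08 in WT and 31% ± 7.26 in *Nlrx1*-/- wells, with *Ccl2* and *Ccl5* at similar levels. Summed over the 8 genes, the level went from 80.5 TPM ± 16.1 to 1054 TPM ± 178 in WT and from 101 TPM ± 10.1 to 1373 TPM ± 370 in *Nlrx1*-/- wells. In stimulated WT wells *Ccl2* stood at 352 TPM ± 70.3, *Cx3cl1* at 294 TPM ± 52.3 and *Ccl5* at 284 TPM ± 61.3, and the litters of these 3 genes overlapped. *Ccl7* followed at 113 TPM ± 33.1, *Ccl8* at 6.82 TPM ± 1.59, *Ccl25* at 3.50 TPM ± 0.552 and *Ccl12* at 0.563 TPM ± 0.586, and *Ccl20* stayed at 0. From *Ccl5* down to *Ccl12*, no litter of a gene overlapped with those of the next gene in this order.

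In stimulated *Nlrx1*-/- wells *Ccl5* had the highest mean, at 445 TPM ± 143, before *Cx3cl1* at 407 TPM ± 43.7 and *Ccl2* at 395 TPM ± 167, and these 3 overlapped among litters as they did in WT. *Ccl7* was at 102 TPM ± 30.5, apart from the genes on both sides of it. *Ccl8* at 16.8 TPM ± 13.1, *Ccl25* at 3.42 TPM ± 0.765, *Ccl12* at 3.11 TPM ± 2.47 and *Ccl20* at 0.663 TPM ± 0.565 each overlapped with their neighbour in the order. Of the 4 members in the chromosome 11 cluster, the outer genes *Ccl2* and *Ccl8* therefore differed in stimulated level by more than an order of magnitude. *Ccl12*, which lies between *Ccl7* and *Ccl8*, was the lowest of the 4.

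**Figure D1:**
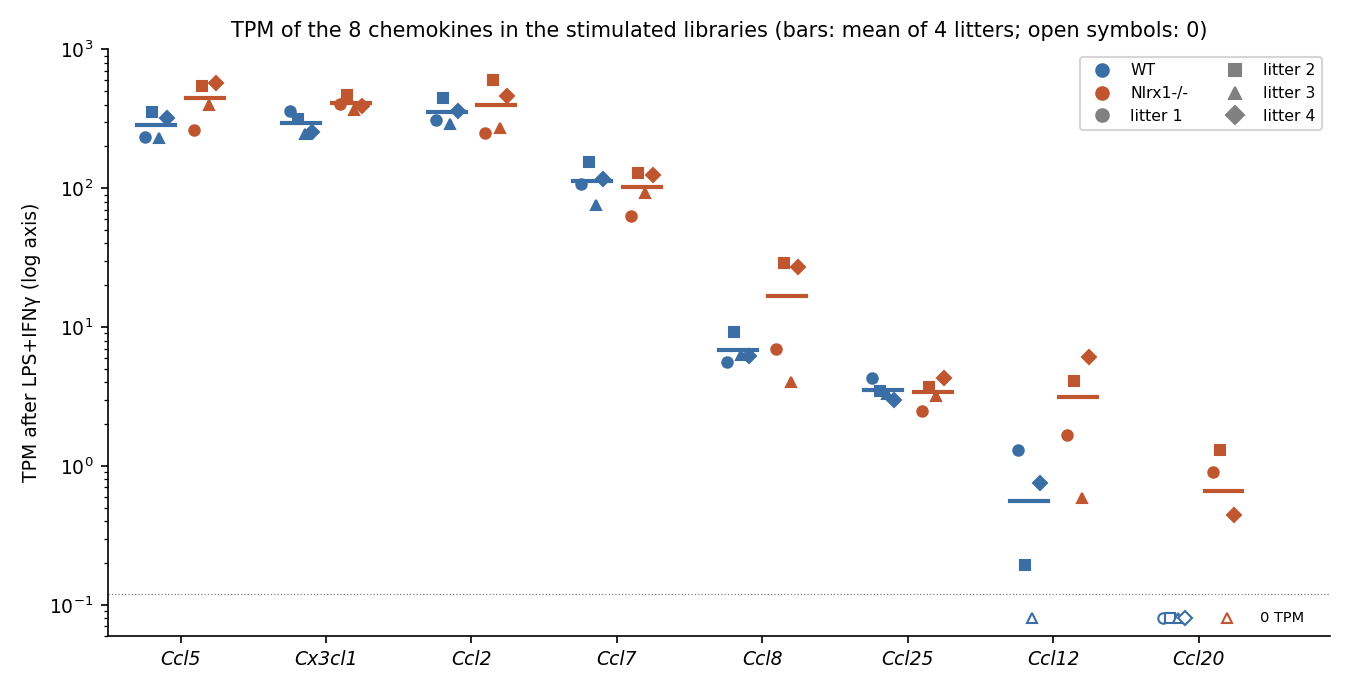
TPM of each of the 8 chemokines in the stimulated libraries on a log axis, WT in blue and *Nlrx1*-/- in orange, with a symbol shape for each litter number, bars for the mean of 4 litters and open symbols for 0. *Ccl5*, *Cx3cl1* and *Ccl2* form a top group between 230 and 602 TPM, *Ccl7* lies at 62.7 to 155 TPM, and *Ccl20* has reads in 3 of the 4 *Nlrx1*-/- libraries and in none of the WT libraries.

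The next comparisons ask how each gene responded to LPS + IFNγ within a litter. *Ccl2*, *Ccl5*, *Ccl7*, *Ccl8* and *Cx3cl1* rose in both genotypes, and *Ccl25* did not pass the test in either. In edgeR's quasi-likelihood test with litter as a block and Benjamini-Hochberg adjustment over 16066 genes, 23.7% of all genes tested were called higher in WT and 25.3% in *Nlrx1*-/- cells, and 20.2% and 24.2% were called lower. *Ccl2*, *Ccl5*, *Ccl7* and *Ccl8* entered the test only because their stimulated libraries passed the minimum count, so the number of members called carries no weight of its own.

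*Ccl2* encodes MCP-1, the main CCR2 ligand. In WT vehicle wells its CPM was 0.220, 0.168, 0 and 0.181 in litters 1 to 4, and in the stimulated wells of the same litters 83.0, 128, 81.2 and 98.5. In *Nlrx1*-/- litters 1 to 4 it was 0.0551, 0.813, 0.409 and 0.232 in vehicle and 68.5, 175, 73.6 and 131 after stimulation. Every stimulated library was thus far above every vehicle library. The fitted log2 fold change was 9.48 (SE 0.31, adjusted p = 3.33e-09) in WT and 8.24 (SE 0.28, adjusted p = 3.58e-09) in *Nlrx1*-/- cells. The reads summed over litters differed 753-fold in WT (95% counting interval 482 to 1251) from 19 vehicle reads, and 288-fold in *Nlrx1*-/- cells (222 to 381) from 57 vehicle reads. These counting intervals cover counting error only, since PCR copies are not separate molecules.

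*Ccl5* encodes RANTES. It had no read in the 4 WT vehicle libraries, and 32.4, 52.0, 33.3 and 45.3 CPM in the stimulated wells of WT litters 1 to 4. In *Nlrx1*-/- vehicle wells it was at 0 in litters 1 and 3 and at 0.275 and 0.163 CPM in litters 2 and 4, and in the stimulated wells it was at 37.5, 81.8, 56.2 and 85.2 CPM. The response was called in WT (adjusted p = 6.85e-07) and in *Nlrx1*-/- cells (adjusted p = 4.78e-07). Against the floor of 3 reads per library, *Ccl5* was at least 487-fold higher in stimulated WT wells, and against the 17 vehicle reads of the *Nlrx1*-/- libraries it was 567-fold higher (95% counting interval 354 to 973). A bound and a ratio are not comparable in size.

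*Ccl7*, which encodes MCP-3, gave the same picture at a lower level. It had no WT vehicle read, and its stimulated CPM in WT litters 1 to 4 was 28.2, 43.9, 20.8 and 31.6. The *Nlrx1*-/- vehicle libraries held 4 reads, all in litter 2 (0.108 CPM), and the stimulated wells stood at 17, 36.9, 25 and 35.2 CPM. *Ccl7* was at least 365-fold higher in stimulated WT wells (adjusted p = 6.27e-07) and 1066-fold higher in *Nlrx1*-/- wells (95% counting interval 416 to 3916, adjusted p = 6.39e-07), the latter resting on those 4 reads.

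*Ccl8* encodes MCP-2 and had no read in any of the 8 vehicle libraries. After stimulation it had 20, 44, 26 and 30 reads in WT litters 1 to 4 and 31, 112, 19 and 123 reads in *Nlrx1*-/- litters 1 to 4. It was at least 10.9-fold higher in WT (adjusted p = 0.00315) and at least 28.5-fold higher in *Nlrx1*-/- wells (adjusted p = 0.00157). The spread over *Nlrx1*-/- litters was wide, with litters 2 and 4 each at over 3 times the reads of litters 1 and 3.

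*Cx3cl1* had the highest resting level of the 8 genes, and its response was the smallest among the members called in fold terms. Its CPM in WT litters 1 to 4 was 133, 122, 113 and 80.8 in vehicle and 600, 568, 435 and 438 after stimulation. In *Nlrx1*-/- litters 1 to 4 it was 132, 166, 152 and 139 in vehicle and 695, 858, 629 and 700 after stimulation. The fold change was 4.53 in WT (log2 2.18, SE 0.08, adjusted p = 6.88e-09) and 4.83 in *Nlrx1*-/- cells (log2 2.27, SE 0.08, adjusted p = 5.15e-09). Taken litter by litter on the deposited log2 CPM scale, the stimulated well exceeded the vehicle well by 1.94 to 2.44 in WT (mean 2.19 ± 0.20, SD, n = 4) and by 2.05 to 2.39 in *Nlrx1*-/- litters (mean 2.29 ± 0.16). These values rest on 3002 to 24194 reads per library.

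*Ccl25*, known as a thymus and gut chemokine, was present at a low, steady level as a sum over its transcripts. The transcript model with the most reads held 60.7% of them in WT vehicle and 75.3% in WT stimulated wells. In *Nlrx1*-/- wells it held 52.1% in vehicle and 26.6% after stimulation. These shares rest on few reads and were not tested. The gene ran between 1.61 and 3.17 CPM in the 16 libraries, on 38 to 120 reads each. The fitted log2 fold change was -0.15 (SE 0.27, adjusted p = 0.693) in WT and 0.00 (adjusted p = 0.99998) in *Nlrx1*-/- cells. The 95% interval of the fold ran from 0.622 to 1.31 in WT, so a change of the size seen in *Cx3cl1* lies outside it. In *Nlrx1*-/- cells the fitted value was too near 0 for a usable SE, and no interval is given. There the stimulated well differed from the vehicle well of the litter by -0.39 to 0.36 in deposited log2 CPM.

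*Ccl12*, which encodes MCP-5, and *Ccl20* had no vehicle read in either genotype and were too low for the test. *Ccl12* had 5, 1, 0 and 4 reads in stimulated WT litters 1 to 4 and 8, 17, 3 and 30 reads in stimulated *Nlrx1*-/- litters 1 to 4. This made it at least 5.69-fold higher in stimulated *Nlrx1*-/- wells than the vehicle floor, and gave no fold in WT, where the level did not pass the floor. *Ccl20*, a Th17 attractant, had no read in the WT libraries and 8, 10, 0 and 4 reads in stimulated *Nlrx1*-/- litters 1 to 4, at least 2.24-fold above the vehicle floor.

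**Figure D2:**
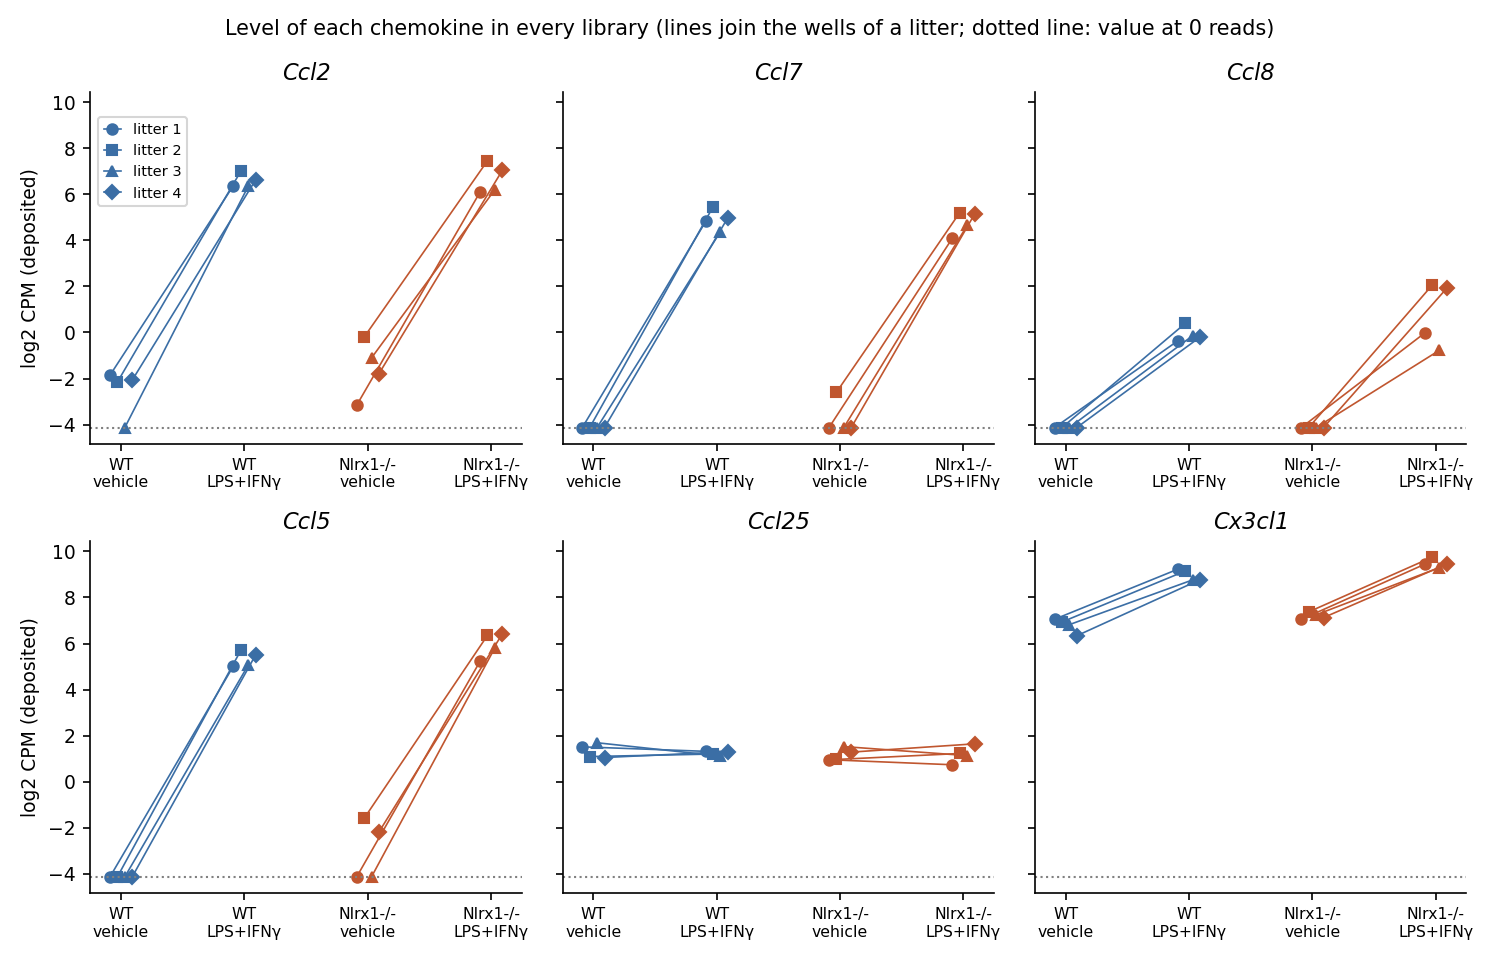
Deposited log2 CPM of the 6 chemokines in the table, in every library, with WT in blue and *Nlrx1*-/- in orange. Lines join the vehicle and the stimulated well of a litter, symbol shapes give the litter number, and the dotted line at -4.13 is the value given to 0 reads. *Ccl2*, *Ccl5*, *Ccl7* and *Ccl8* leave that floor or its neighbourhood in every litter, *Cx3cl1* climbs from 6.34 to 7.37 up to 8.76 to 9.75, and *Ccl25* stays between 0.74 and 1.69.

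The genotypes were then compared within each treatment, which asks whether loss of *Nlrx1* shifts the chemokines at rest or after stimulation. No member passed the test in vehicle wells, where 0% of the 16066 genes were called (edgeR, lowest adjusted p over all genes 0.0538, 3152 genes with an unadjusted p under 0.05). In the same contrast 781 genes were called by DESeq2, 1 by limma-voom, and by edgeR 153 without WT litter 1 and 1310 without *Nlrx1*-/- litter 3. *Cx3cl1* had the best-measured difference, with 112 CPM ± 22.5 in WT and 147 CPM ± 14.7 in *Nlrx1*-/- vehicle wells (SD, n = 4). Its fold was 1.3 (95% interval 1.07 to 1.59, adjusted p = 0.183), and the lowest *Nlrx1*-/- library, at 132 CPM, lay just under the highest WT library, at 133 CPM.

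For the genes near 0 the vehicle comparison rests on a handful of reads. *Ccl2* had 19 reads over the WT libraries and 57 over the *Nlrx1*-/- libraries, 30 of them in litter 2 (log2 fold change 1.48, SE 0.86, adjusted p = 0.347). *Ccl5* had 0 reads in WT and 17 in *Nlrx1*-/- vehicle wells, from litters 2 and 4 (adjusted p = 0.207), and *Ccl7* had 0 and 4 (adjusted p = 0.405). With DESeq2, *Ccl5* passed in this contrast (adjusted p = 0.0177). *Ccl25* did not differ beyond its error (fold 0.872, 95% interval 0.596 to 1.27, adjusted p = 0.734).

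In stimulated wells, 5.03% of the 16066 genes were called between genotypes, and none of the 6 members tested was among them. This background rests on single litters, as 808 genes were called with all litters, 1397 without WT litter 1, 1, 2 and 1 without WT litters 2, 3 and 4, and 220, 13, 3333 and 4 without *Nlrx1*-/- litters 1 to 4. *Cx3cl1* came closest. Its stimulated level was 510 CPM ± 86.0 in WT and 721 CPM ± 97.4 in *Nlrx1*-/- wells (SD, n = 4), a fold of 1.40 (95% interval 1.15 to 1.71, log2 0.48, SE 0.15, adjusted p = 0.0579). All 4 *Nlrx1*-/- libraries lay above all 4 WT libraries, a separation in this direction that 7.09% of the genes in the log2 CPM table show. Over 17 alternative fits its log2 difference stayed between 0.39 and 0.57 and its adjusted p between 0.0146 and 0.180, and 6 of them put it below 0.05. These were DESeq2 (0.0146), the replicate number as a fixed block (0.0242), litter as a random block in limma-voom (0.0382), limma on the deposited log2 CPM (0.0458), and the fits without WT litter 1 (0.0371) or without *Nlrx1*-/- litter 3 (0.0303).

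*Ccl5* and *Ccl8* had higher means in stimulated *Nlrx1*-/- wells that did not pass the test. Their unadjusted p was 0.0576 and 0.0675 (edgeR). The approximate intervals of these genes leave out a fold of 1 and are thus narrower than the test allows. *Ccl5* stood at 40.7 CPM ± 9.52 in WT and 65.2 CPM ± 22.5 in *Nlrx1*-/- wells (fold 1.58, 95% interval 1.03 to 2.43, adjusted p = 0.191), and 3 of the 4 *Nlrx1*-/- litters lay above all WT litters. *Ccl8* stood at 0.914 CPM ± 0.239 and 2.32 CPM ± 1.85 (fold 2.49, 95% interval 1.04 to 5.95, adjusted p = 0.208), with litters 2 and 4 above all WT litters and litter 3 below them. *Ccl2* (fold 1.14, 95% interval 0.733 to 1.76, adjusted p = 0.748) and *Ccl7* (fold 0.907, 95% interval 0.593 to 1.39, adjusted p = 0.810) had intervals on both sides of 1, and so had *Ccl25* (fold 0.989, 95% interval 0.674 to 1.45, adjusted p = 0.982). *Ccl12* had 10 reads over the WT and 58 over the *Nlrx1*-/- stimulated libraries, and *Ccl20* had 0 and 22. Without the minimum count these were fitted too, and neither passed (adjusted p = 0.240 for *Ccl12* and 0.141 for *Ccl20*). In the same contrast 3 of the 10 astrocyte markers were lower in *Nlrx1*-/- cells, *Aldoc* (log2 -0.62, SE 0.16, adjusted p = 0.0455), *S100b* (-2.0, SE 0.51, adjusted p = 0.0439) and *Gja1* (-1.33, SE 0.36, adjusted p = 0.0472), and the part of this in the chemokine values was not tested. All 3 of these calls held without WT litter 1 and without *Nlrx1*-/- litter 3 and were lost without any of the other 6 litters (highest adjusted p 0.152, 0.150 and 0.158).

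**Figure D3:**
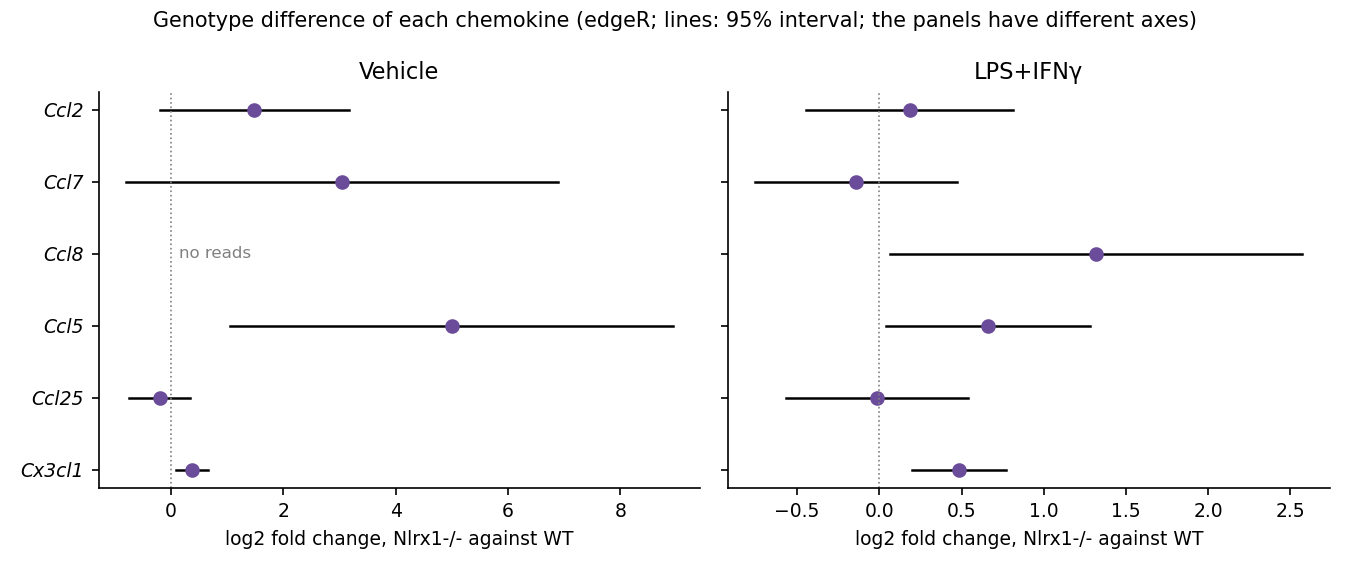
Log2 fold change of *Nlrx1*-/- against WT for the 6 chemokines tested, in vehicle and in LPS + IFNγ wells, on axes of different length. Lines are approximate 95% intervals from a standard error derived from edgeR's F statistic. Those of *Cx3cl1* and *Ccl5* lie to the right of 0 in both panels, and that of *Ccl8* does in the stimulated panel. In stimulated wells the unadjusted p (edgeR) was 0.0576 for *Ccl5* and 0.0675 for *Ccl8*, so their lines are narrower than the test allows. The vehicle value of *Ccl5* is set against 0 WT reads and depends on the prior count. *Ccl8* has no vehicle reads, and none of the points passed the adjusted threshold.

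Each litter gave 1 stimulated well. Litters 2 and 4 held the 2 highest *Nlrx1*-/- values of *Ccl2*, *Ccl5*, *Ccl7*, *Ccl8*, *Ccl12*, *Ccl25* and *Cx3cl1*. This order, singled out after the values were seen, held for all 6 members in the CPM table and for 27.3% of all its genes. Of these 6 members, 4 lay above all WT litters in litter 2 and 5 in litter 4, against 1 in litter 1 and 2 in litter 3, while 33%, 32.8%, 26.5% and 19% of all genes did so in litters 2, 4, 1 and 3. For *Ccl8*, litters 2 and 4 were at 4.47 and 4.10 times the WT mean, and litters 1 and 3 at 1.01 and 0.579 times. For *Ccl5* the ratios to the WT mean were 2.01 and 2.09 in litters 2 and 4 and 0.92 and 1.38 in litters 1 and 3. The same litters had the lowest summed astrocyte markers among stimulated *Nlrx1*-/- wells, 2709 TPM in litter 2 and 2692 TPM in litter 4 against 3197 and 3874 TPM in litters 1 and 3, and their part in the chemokine levels was not tested. Without *Nlrx1*-/- litter 2 the genotype difference of *Ccl2* turned from 0.18 to -0.12 in log2, that of *Ccl8* went from 1.32 to 0.90 and that of *Cx3cl1* from 0.48 to 0.39.

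**Figure D4:**
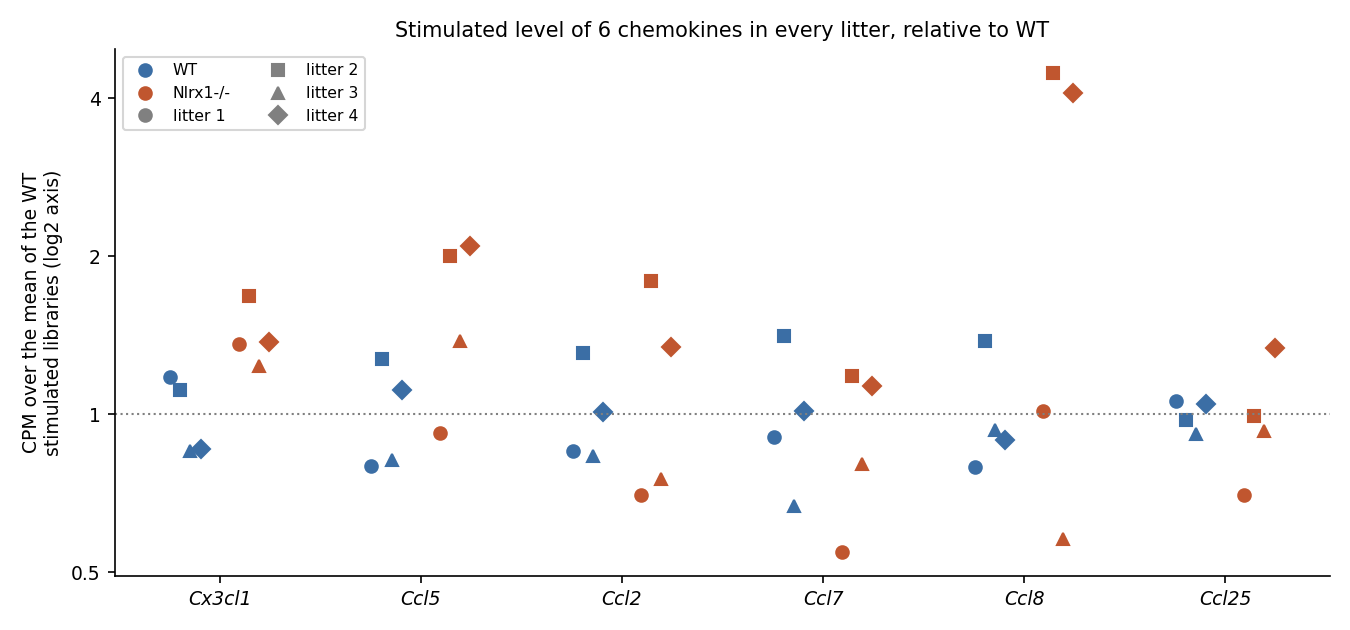
CPM in each stimulated library divided by the mean of the 4 WT stimulated libraries, for 6 chemokines, on a log2 axis, with WT in blue, *Nlrx1*-/- in orange and a symbol shape for each litter number. Among the orange symbols alone, litter 2 (square) and litter 4 (diamond) lie highest in each gene, with *Cx3cl1* litter 4 level with litter 1, while WT litter 2 is the highest library for *Ccl7* and WT litters 1 and 4 lie above *Nlrx1*-/- litter 2 for *Ccl25*. *Ccl8* shows the widest split, from 0.579 to 4.47.

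Whether the size of the response itself differed between genotypes was tested as the interaction of genotype and LPS + IFNγ with litter as a block. None of the members passed, and 0% of the 16066 genes were called (edgeR, lowest adjusted p 0.217, 2469 genes with an unadjusted p under 0.05), against 310 genes with DESeq2, 0 with limma-voom and 317 in edgeR without *Nlrx1*-/- litter 3. For *Cx3cl1* the difference between the responses was 0.09 in log2 (SE 0.11, adjusted p = 0.732), with a 95% interval from -0.12 to 0.30. A *Cx3cl1* response in *Nlrx1*-/- cells more than 1.23 times that in WT cells therefore lies outside the interval, and the genotype difference at rest (0.38) and after stimulation (0.48) had nearly the same size. For *Ccl2* it was -1.24 (SE 0.64, adjusted p = 0.383), and it rests on 19 vehicle reads in WT. The interaction of *Ccl5*, *Ccl7* and *Ccl8* could not be read as a size, because at 0 reads in the WT vehicle wells the fitted value depends on the prior count. For *Ccl25* it was 0.15 (SE 0.39, adjusted p = 0.895).

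Other genes of the same signalling system were followed from 4 lists. Of 14 further CC ligand genes, 12 had reads and 2 passed the minimum count, *Ccl27a* and *Ccl28*. *Ccl27a*, a ligand of CCR10, fell in *Nlrx1*-/- cells (log2 -0.74, SE 0.26, adjusted p = 0.0354, up to 0.163 and lost without WT litter 3 or *Nlrx1*-/- litter 3 or 4) and had -0.38 (SE 0.25, adjusted p = 0.243) in WT cells. It was the 1 call lower of the 2 tested in *Nlrx1*-/- cells, where 24.2% of all genes were called lower. The median log2 change of the pair was -0.51 in WT and -0.64 in *Nlrx1*-/- cells, against -0.02 and -0.03 for all genes. *Ccl28* did not pass in any comparison. *Ccl11* had no vehicle read in either genotype, and 17 reads in WT and 48 in *Nlrx1*-/- stimulated wells. *Ccl3* had 24 reads in WT and 4 in *Nlrx1*-/- stimulated wells and none in vehicle wells, and *Ccl4* had 5 and 3, so these macrophage inflammatory proteins were at trace level.

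The receptors that answer these ligands were at trace level or undetected in the cultures. Of 11 receptor genes, 7 had a read and *Ccr10* alone passed the minimum count, without a call in any comparison. *Ccr2*, *Ccr3*, *Ccr4* and *Ccr8* had no read in the 16 libraries, and *Cx3cr1*, the fractalkine receptor, had 8 reads over the WT vehicle libraries, 0 over the WT stimulated and 1 over each *Nlrx1*-/- condition.

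Atypical receptors bind chemokines without G-protein signalling and remove or present them. *Ackr3*, which takes up CXCL12, was the most abundant, at 62.6 and 67.7 TPM in WT and *Nlrx1*-/- vehicle wells, and it fell with stimulation in WT (log2 -1.06, SE 0.12, adjusted p = 5.56e-05) and in *Nlrx1*-/- cells (log2 -1.40, SE 0.12, adjusted p = 7.21e-06). *Ccrl2*, which binds the chemoattractant chemerin, rose from 0.219 to 1.06 TPM in WT (log2 2.46, SE 0.74, adjusted p = 0.0208, up to 0.0962 and lost without WT litter 1, 2 or 4) and from 0.126 to 1.56 TPM in *Nlrx1*-/- cells (log2 3.59, SE 0.78, adjusted p = 0.00319). *Ackr1*, which binds CCL2, CCL5 and CCL7 among others, had 61.3 reads over the stimulated WT libraries, in all 4 litters, and none over the stimulated *Nlrx1*-/- libraries (adjusted p = 0.0489 between genotypes, lost without any litter but WT litter 1 and *Nlrx1*-/- litter 3, up to 0.150), after 89.5 and 57.6 reads in WT and *Nlrx1*-/- vehicle wells, in 3 litters of each. Its response was called lower in *Nlrx1*-/- cells (adjusted p = 0.0105) and not in WT (adjusted p = 0.999), and the interaction did not pass (adjusted p = 0.223). *Ackr4* did not pass in any comparison. Of the 4 tested, 1 was called higher and 1 lower in WT, where 23.7% and 20.2% of all genes were, and 1 higher and 2 lower in *Nlrx1*-/- cells, where 25.3% and 24.2% of all genes were. The median log2 changes of the 4 were 0.29 and -0.97, against -0.02 and -0.03 over all genes.

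Of 7 protease genes that shed or trim chemokines, 3 passed the minimum count. *Adam10*, at 80.5 to 90.6 TPM, and *Adam17*, at 42.5 to 53.7 TPM in condition means, the sheddases of fractalkine, did not pass in any comparison, and their interaction values were -0.07 (SE 0.07) and -0.05 (SE 0.08) in log2. *Mmp2*, which can cleave CCL7, fell with stimulation from 6.66 to 2.43 TPM in WT (log2 -1.27, SE 0.15, adjusted p = 6.09e-05) and from 10.5 to 6.30 TPM in *Nlrx1*-/- cells (log2 -0.55, SE 0.14, adjusted p = 0.00732). In stimulated wells *Mmp2* was higher in *Nlrx1*-/- than in WT cells (log2 1.38, SE 0.34, adjusted p = 0.0413, held only without *Nlrx1*-/- litter 3 among the 8 fits that leave out a litter, up to 0.150 in the others), and the interaction did not pass (0.72, SE 0.20, adjusted p = 0.223). The median log2 change of the 3 was -0.08 in WT and -0.13 in *Nlrx1*-/- cells, against -0.02 and -0.03 over all genes.

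The genes whose log2 CPM followed each member most closely over the 16 libraries were found among 13500 others by Pearson's r, as a description without a test, since the libraries fall into a vehicle and a stimulated cluster and any gene that responds to the treatment scores high. *Ccl5* was closest to *Cxcl10*, an interferon-induced CXC chemokine (r = 0.998), *H2-K1* and *Rcn1*. *Ccl7* was closest to the guanylate-binding protein genes *Gbp7* (r = 0.997) and *Gbp5* and to the peptide transporter gene *Tap1*. *Ccl2* was closest to *Ifi35*, *Kars* and *Cxcl10*, each at r = 0.991. *Ccl8* followed *Tor3a* (r = 0.994), *Cd47* and *Nampt*, and *Cx3cl1* followed *Upp1*, *Dnajb11* and *Ccng1*, each at r = 0.991. *Ccl25* had no gene above 0.95, and its best match was *Anxa1* at r = 0.722.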

How the data were processed

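The 16 libraries were assigned to WT or *Nlrx1*-/-, vehicle or LPS + IFNγ, and replicate number from the sample labels. A replicate is called a litter here, as in the study's methods. The authors quantified reads with Salmon 1.7.0 on GRCm39 RefSeq transcripts and deposited, per transcript, an expected count and a TPM, here summed per gene for 35297 genes. Per gene, the authors deposited CPM, a depth-scaled signal with TMM-adjusted library sizes from limma 3.58.1 after a low-count filter, and its log2, in which 0 reads stand at -4.13. All other results were computed here. Expected counts were rounded and tested in edgeR 4.0.16 (R 4.3.3; TMM, length offsets, filterByExpr with a minimum count of 10, quasi-likelihood test, Benjamini-Hochberg adjustment over 16066 genes, threshold 0.05). Responses and the interaction had litter as a block, as in the study's formula. Contrasts between genotypes came from a model with a term for each of the 4 conditions and none for litter. The series' design text ties both wells of a replicate to the same set of mice. Deviations of a litter's libraries from the condition means correlated at 0.0761 to 0.320, against a median of -0.0418 between litters. The edgeR test gives no standard error, so each SE is the absolute log2 fold change over the square root of the test's F. 95% intervals are 1.96 of these SE on both sides. They are approximate, are narrower than the F test, and cannot be used at a log2 fold change of almost 0. Bounds set the mean stimulated level against 3 reads in each vehicle library. On simulated data with 200 of 16066 genes changed by 1 log2 unit in the stimulated *Nlrx1*-/- libraries alone, edgeR called 82.5% in the *Nlrx1*-/- response, 88.5% between stimulated genotypes and 70.5% in the interaction. No change was simulated in the WT response or between vehicle genotypes, which have no recovery value. The simulation held no litter effects and took its spread from the fit with litter as a block. Its changed genes were drawn from those with higher counts. The 88.5% thus does not give the recovery between stimulated genotypes of the real litters. DESeq2 1.42.0, limma-voom and other settings served as alternatives. Sums, plots and alignments used Python 3.11.15 with numpy 2.4.6, pandas 2.3.3, scipy 1.17.1, matplotlib 3.10.9 and Biopython 1.88. Genes named outside the members are the 3 most alike by Pearson's r among genes with a mean of at least 0 log2 CPM, and pathway and marker genes that were called or detected. The members and lists were chosen with earlier results of these data known. Lists of oligodendrocyte, neuron, endothelial, fibroblast and ependymal markers were also counted, and values of some list genes are not reported here.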

Additional observations from a re-analysis of the deposited data

Results flagged for a closer look

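Of 32 groups of 4 litters examined for a library far from the rest, 2 held one, and chance alone gives about 1 in 20. *Ccl2* in WT vehicle wells was at -4.13 log2 CPM in litter 3, the value of 0 reads, while the other 3 litters had 5 to 7 reads. *Ccl7* in *Nlrx1*-/- vehicle wells was at -2.60 log2 CPM in litter 2, on 4 reads, while the other 3 litters had none. Both are differences of a few reads, and the part of sampling in them was not tested.

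Reads of genes outside the log2 CPM table were above the count of 0 in the vehicle wells. *Ccl12* had 10 reads over the 4 WT stimulated libraries and 58 over the 4 *Nlrx1*-/- stimulated libraries. *Ccl20* had 22 reads over the 4 *Nlrx1*-/- stimulated libraries and none in WT.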

How the results depend on the processing

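The calls of *Ccl2*, *Ccl5*, *Ccl7*, *Ccl8* and *Cx3cl1* in both responses held in all 16 alternatives, and without the minimum count *Ccl12* was called in *Nlrx1*-/- cells too. The number of members called between vehicle genotypes went from 0 to 1 with DESeq2 (*Ccl5*). Between stimulated genotypes it went from 0 to 1 (*Cx3cl1*) with the replicate block, the random replicate block in limma-voom, limma on log2 CPM and DESeq2, and leaving out a litter gave 0 to 1. The interaction kept 0 in each alternative, with no replicate block included. The signs of small differences turned when a litter was left out. *Ccl25* ranged from -0.29 to 0.052 in the WT response, -0.19 to 0.16 in the *Nlrx1*-/- response, -0.33 to 0.0084 between vehicle genotypes, -0.15 to 0.12 between stimulated genotypes and -0.052 to 0.31 in the interaction. Between stimulated genotypes *Ccl2* ranged from -0.12 to 0.36 and *Ccl7* from -0.29 to 0.067. Without *Nlrx1*-/- litter 2 no vehicle read of *Ccl7* was left, and its vehicle difference has no value. Over all genes, the 808 calls between stimulated genotypes became 2206 with the replicate block, 1244 with the random replicate block, 387 with limma-voom, 1471 with limma on log2 CPM, 2502 with DESeq2, 0 with the 8 stimulated libraries alone and 1 to 3333 without a litter, and the cause was not tested. The 0 calls between vehicle genotypes became 781 with DESeq2 and 0 to 1310 without a litter, and the 0 of the interaction 310 and 0 to 317. WT and *Nlrx1*-/- libraries of the same number correlated at -0.0544 to 0.152, and no label ties them, so the genotypes were not paired by number. Mean litter-paired responses shrank with a pseudocount of 1 on the CPM, to 6.41 and 6.28 for *Ccl2* in WT and *Nlrx1*-/-, 4.96 and 4.79 for *Ccl7*, 0.93 and 1.54 for *Ccl8* and 5.36 and 5.83 for *Ccl5*, which this construction brings about for genes at 0. On log2(TPM + 1) they were 7.81 and 7.35 for *Ccl2*, 6.79 and 6.50 for *Ccl7*, 2.95 and 3.76 for *Ccl8*, 8.13 and 8.03 for *Ccl5* and 1.96 and 2.09 for *Cx3cl1*. The *Nlrx1*-/- minus WT difference of the *Ccl5* response thus turned sign with the scale, at -0.49 on log2 CPM, 0.48 with the pseudocount and -0.09 on log2(TPM + 1). Depth limits *Ccl8*, *Ccl12* and *Ccl20*, at most 123 reads in a library.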

Other observations

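The ratio of *Ccl5* to *Ccl7* TPM in stimulated wells, singled out after its values were seen, was 2.20 to 3.06 in the 4 WT litters (mean 2.56 ± 0.41, SD) and 4.21 to 4.63 in the 4 *Nlrx1*-/- litters (mean 4.34 ± 0.19). The groups did not overlap. *Ccl5* to *Ccl2* was 0.755 to 0.889 in WT and 0.901 to 1.48 in *Nlrx1*-/- litters, also without overlap. *Ccl7* to *Ccl2* overlapped, at 0.259 to 0.347 and 0.213 to 0.344, as did *Ccl8* to *Ccl2*, at 0.0172 to 0.0218 and 0.0149 to 0.0592, and *Cx3cl1* to *Ccl2*, at 0.706 to 1.15 and 0.779 to 1.62. Of the 15 ratios among the 6 members with reads in all stimulated libraries, 2 separated the genotypes, *Ccl5* to *Ccl7* and *Ccl5* to *Ccl2*. Over 15118 other genes, the ratio of *Ccl5* to the gene separated the genotypes for 7.96% and that of *Ccl7* for 2.24%. These ratios were not tested.

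Markers of other cell types were counted in the same fits. Of the oligodendrocyte lineage list, *Mbp*, *Pdgfra*, *Cspg4* and *Sox10* fell after LPS + IFNγ in both genotypes. No gene of the 6 neuron or of the 6 fibroblast and mural markers was called between genotypes. Of all genes, 0% were in vehicle and 5.03% in stimulated wells. In the responses, 2 neuron markers were called higher and 1 lower in WT (all genes 23.7% and 20.2%). In *Nlrx1*-/- cells 3 were called higher and 2 lower (25.3% and 24.2%). The fibroblast and mural list summed to 27.4 TPM in vehicle and 20.1 TPM in stimulated wells of *Nlrx1*-/- litter 3. The other *Nlrx1*-/- litters summed to 6.38 to 10.9 TPM and 5.90 to 7.16 TPM, and its part in the calls was not tested. In stimulated wells *Pdgfra*, a marker of oligodendrocyte precursors, and *Ccdc146* and *Cfap206*, ependymal markers, were lower and *Flt1*, an endothelial marker, was higher in *Nlrx1*-/- cells (adjusted p = 0.0396 each, edgeR), and each of these 4 calls was lost without any litter but WT litter 1 and *Nlrx1*-/- litter 3, up to 0.150.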
